A study of Mus musculus and Rattus norvegicus with 32 samples.

Results

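Aquaporins are small membrane channels that let water cross cell membranes along osmotic gradients, and some of them also pass glycerol or hydrogen peroxide. In the heart Aqp1 is the water channel of the capillary endothelium and of red blood cells, Aqp7 carries glycerol into and out of muscle and fat cells, and Aqp4 is the main water channel of astrocytes and is also found in the membrane of striated muscle. The 5 genes described here are Aqp1, Aqp4, Aqp7, Aqp8 and Aqp11, taken by symbol from all 4 count tables of the study. They are 5 of the 12 aquaporin genes among the 55487 genes of the mouse tables, and the rat table lists 32883 genes. They were grouped around Aqp4, which was selected on its own log2 fold changes between METTL5-cKO and control hearts, lower after pressure overload and not lower at 3 months. The values of those genotype comparisons are therefore given as a description, without a test, for every member.

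The study asked what METTL5, the methyltransferase that sets an N6-methyladenosine on 18S ribosomal RNA, does in the heart, and measured mRNA by RNA-seq in 32 libraries, 4 in each of 8 groups. The mouse groups were C57BL/6 hearts: control and METTL5-KO, a knockout with no cell type named, at 1 month, control and METTL5-cKO at 3 months without surgery, and control and METTL5-cKO 4 weeks after transverse aortic constriction (TAC), an operation that loads the left ventricle with pressure. The hearts after TAC also carry an age of 3 months in the labels. METTL5-cKO mice carry floxed METTL5 alleles and Myh6-Cre, so the deletion is driven in cardiomyocytes and the other cells of the heart keep the gene. For both METTL5-cKO groups the titles say cKO and the genotype label says Mettl5-KO, and the titles were followed. Neonatal rat ventricular myocytes (NRVMs) of Sprague Dawley pups at day 2 received an adenovirus with GFP (AdGFP) or with METTL5 (AdMETTL5), and both groups were treated with 20 µM phenylephrine (PE), an adrenergic agonist, for 24 h. No source states which animals or cultures the libraries came from, so p-values measure the spread between these libraries. In bulk tissue fewer cells of a type and less RNA per cell cannot be told apart.

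Library totals ran from 19899033 to 21804907 counts in the mouse hearts and from 14324700 to 18085339 in the rat cells, and a floor of 3 counts corresponded to at most 0.151 CPM (counts scaled to the library size) and 0.209 CPM. All 12 cardiomyocyte markers examined were detected in each mouse group. Counts over the whole Mettl5 gene did not separate the groups in any of the 3 mouse genotype comparisons. They were 5.45 ± 0.742 CPM in control and 6.35 ± 0.904 CPM in the libraries labelled METTL5-KO at 1 month (SD, n = 4), and since METTL5-cKO lacks only some exons they do not check the labels there. In the rat cells the rat Mettl5 gene had 17.02 ± 0.773 CPM with AdGFP and 21.2 ± 1.76 CPM with AdMETTL5 (SD, n = 4). According to the paper the adenovirus carried human METTL5, so these counts on the rat genome do not give the degree of overexpression. Some libraries stood apart. In control library 1 at 1 month Nppa, a natriuretic peptide of the atria that stressed ventricles also make, reached 764 CPM, against 127.7 to 200.6 CPM in the other control libraries of that age. METTL5-cKO library 4 after TAC had 2156 CPM of Nppa, against 5269 to 6019 CPM in the other libraries of its group, and 871 CPM of fibroblast markers against 1480 to 2230 CPM. Of the other atrial markers Myl7 was at 0 in the libraries of these 2 groups, Sln had at most 3 counts and Bmp10 at most 4. Dkk3 had 3.53 to 13.7 CPM in METTL5-cKO after TAC, against 1.22 to 2.27 CPM in control after TAC. Myl4 had 1.85 to 2.54 CPM against 1.27 to 1.69 CPM. In control at 1 month Dkk3 had 1.43 to 2.78 CPM and Myl4 had 0.999 to 2.18 CPM. Some of the members' values that rest on the libraries that stood apart are given with and without them, others with their range when each library was left out. Counts of genes passing after TAC moved widely with single libraries. Of 2071 genes that passed between METTL5-cKO and control hearts after TAC, 479 passed without control library 4 and 3899 without METTL5-cKO library 4. The counts within the marker and pathway lists moved likewise, and their ranges when each library was left out are given beside them.

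The channels differ at the pair of short motifs that line the pore, typically asparagine, proline and alanine. The windows below are coding sequence of GENCODE M21 transcripts on GRCm38, 5′ to 3′, with the 9 bases of each motif in capitals, and they are shown because the members differ in them. Base positions are counted from the A of the start codon of the longest open reading frame. Aqp1 lies at chr6:55336432-55348555 on the plus strand, and its motifs begin at bases 226 and 574.
Aqp1 motif 1: gctcacctcAACCCTGCGgtcacactg
Aqp1 motif 2: tgcggtatcAACCCTGCCcggtcattt
Aqp8 lies at chr7:123462291-123468004 on the plus strand, and its motifs begin at bases 274 and 628.
Aqp8 motif 1: ggacacttcAACCCTGCTgtgtcgctg
Aqp8 motif 2: gcctgcatgAACCCTGCTcgtgccttt
Aqp7 lies at chr4:41033074-41048139 on the minus strand, and its motifs begin at bases 235 and 631.
Aqp7 motif 1: gcccacatgAATGCCGCAgtgactttc
Aqp7 motif 2: tatgcaatcAACCCATCCcgtgacctg
Aqp11 lies at chr7:97724006-97738289 on the minus strand, and its motifs begin at bases 295 and 646.
Aqp11 motif 1: acagctagcAACCCGTGCggcgtgatg
Aqp11 motif 2: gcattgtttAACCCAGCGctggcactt
Aqp1 and Aqp8 keep codons for the typical motif at both places. In Aqp7 both motifs differ from it, and in Aqp11 the first one does. These 4 genes overlap no other annotated gene.

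Aqp1 was by far the main aquaporin mRNA of the mouse heart on a scale corrected for gene length. As RPKM, which is CPM divided by the length of the exons in kilobases, it made up 90.4% to 96.8% of the summed aquaporin level in the 24 libraries, with a median of 93.9%. Aqp7 followed at a median of 4.16%, with a range of 2.0% to 7.96%. Aqp8 had a median of 0.544%, Aqp4 of 0.377% and Aqp11 of 0.183%. The share of Aqp8 reached 4.05% and that of Aqp4 reached 1.77%, so which of these low channels ranked next depended on the group. In METTL5-cKO hearts after TAC Aqp8 held 3.09% ± 1.11 and Aqp4 held 0.0336% ± 0.0239 (SD, n = 4). In METTL5-KO hearts at 1 month the order was the opposite, with 1.40% ± 0.388 for Aqp4 and 0.0888% ± 0.178 for Aqp8.

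The other 7 aquaporin genes were near or at the limit of detection. Aqp3, Aqp5 and Aqp12 had 0 counts in all 24 mouse libraries, while Aqp6 reached at most 8 counts, Aqp9 and Mip at most 4, and Aqp2 at most 3. In the rat cells Aqp3 had at most 8 counts. None of the 7 passed the filter on low counts in any comparison.

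**Figure D1:**
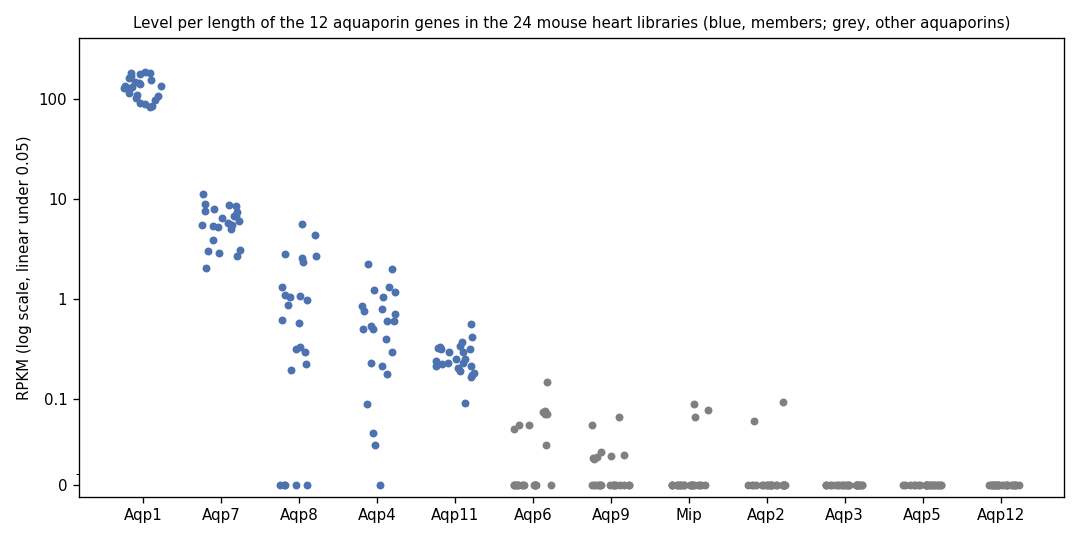
RPKM of the 12 aquaporin genes (horizontal axis) in the 24 mouse heart libraries, 1 point per library, on a vertical axis that is logarithmic above 0.05 and linear below. Aqp1 stands alone at the top, Aqp7 follows, Aqp8, Aqp4 and Aqp11 lie lower and spread widely, and the other 7 genes are at or near 0.

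The level of Aqp4 differed widely between groups. Its counts were 71, 152, 47 and 81 in the control libraries at 1 month and 272, 226, 155 and 133 in METTL5-KO. At 3 months the counts were 79, 68, 79 and 54 in control and 144, 105, 114 and 92 in METTL5-cKO. After TAC the control libraries held 37, 27, 21 and 29 counts, and METTL5-cKO held 5, 0, 7 and 11. Aqp4 lies on chromosome 18 and overlaps AC133525.2 on the opposite strand, and since the strandedness of the libraries is not given in the sources used here, reads of the pair cannot be told apart. Both METTL5-deficient groups without surgery lay above their controls, with 1 control library at 1 month (152 counts) inside the METTL5-KO range, and the METTL5-cKO group after TAC lay below every other library.

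Scaled over all 24 mouse libraries, the mean level of Aqp4 was 9.82 ± 3.16 CPM in METTL5-KO at 1 month, 5.05 ± 0.887 in METTL5-cKO at 3 months, 4.55 ± 2.26 in control at 1 month, 3.19 ± 0.562 in control at 3 months, 1.36 ± 0.299 in control after TAC and 0.256 ± 0.219 in METTL5-cKO after TAC (SD, n = 4 each). METTL5-KO at 1 month did not overlap METTL5-cKO at 3 months, its neighbour in this order. The ranges of METTL5-cKO at 3 months and control at 1 month overlapped, as did those of the controls at 1 and 3 months. Control at 3 months, control after TAC and METTL5-cKO after TAC did not overlap one after the other. All fold changes below come from the fit of the comparison itself, which scales only its own 8 libraries, and so differ slightly from ratios of these levels.

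At 3 months Aqp4 was 1.58-fold higher in METTL5-cKO than in control hearts, a log2 fold change of 0.66 with a standard error (SE) of 0.175. After TAC it was 5.38-fold lower, a log2 fold change of -2.43 with an SE of 0.499. Both values were used in choosing the gene. The low end rests on few reads, since 1 of the 4 METTL5-cKO libraries had 0 counts, and Aqp4 passed the filter on low counts only through the control group. The log2 fold change was -2.99 without METTL5-cKO library 4, which held the most Aqp4 counts of its group, and between -2.99 and -2.02 when each of the 8 libraries was left out in turn. Between unoperated hearts at 3 months and hearts after TAC, Aqp4 differed by a log2 fold change of -1.22 (SE 0.196) within the controls and of -4.30 (SE 0.458) within METTL5-cKO. These comparisons join different tables, so that surgery and table cannot be told apart, and each shares its libraries with the genotype comparisons.

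The comparison at 1 month, of the libraries labelled METTL5-KO with their controls, played no part in choosing Aqp4 and was tested. Aqp4 was 2.16-fold higher in METTL5-KO, with a log2 fold change of 1.11, an SE of 0.341 and a 95% interval of 0.28 to 1.95. This did not pass when all 16329 genes tested were taken into account (edgeR quasi-likelihood test, unadjusted p = 0.00931, Benjamini-Hochberg adjusted p = 0.973). A two-sided exact permutation test over the 70 labelings of the 8 libraries gave p = 0.0857 (n = 4 each), where the smallest possible p is 0.0286. All 4 METTL5-KO libraries were above 3 of the 4 controls. Without control library 1, which stood apart in Nppa, the log2 fold change was 0.94, and without control library 2, the highest control, it was 1.5. In this comparison 0.00612% of the genes tested (1 gene) passed an adjusted p of 0.05, 4.57% had an unadjusted p below 0.05, and DESeq2 called 13 genes.

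Glial cells are a known source of Aqp4, and the summed level of 8 glial markers overlapped between genotypes in all 3 mouse comparisons. The sum was 11.5 to 24.3 CPM in control and 13.1 to 17.9 CPM in METTL5-KO at 1 month, 8.28 to 15.1 and 10.7 to 11.7 CPM at 3 months, and 8.66 to 13.3 and 8.72 to 11.4 CPM after TAC. At most 1 of the 8 was at 0 in every library of a mouse group. After TAC Slc1a3 was higher (log2 fold change 1.96) and Sox10 was lower (-1.28) in METTL5-cKO, and the other 4 of the 6 tested did not pass. Leaving out single libraries gave 1 glial marker passing in 6 cases of 8, and 3 without METTL5-cKO library 4. The part of these cells in the level of Aqp4 was not tested. Cardiomyocyte markers summed to 42100 to 46900 CPM in control and 37000 to 41100 CPM in METTL5-cKO hearts after TAC. The list includes Nppa, and without it the sums were 41700 to 46300 CPM and 31600 to 38900 CPM. Of the 12 Nppa was higher and Tnni3, Myl2 and Myl3 were lower, and the number passing ran from 1 without control library 4 or METTL5-cKO library 2 to 8 without METTL5-cKO library 4. The part of the cardiomyocyte share in the level of Aqp4 was not tested.

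**Figure D2:**
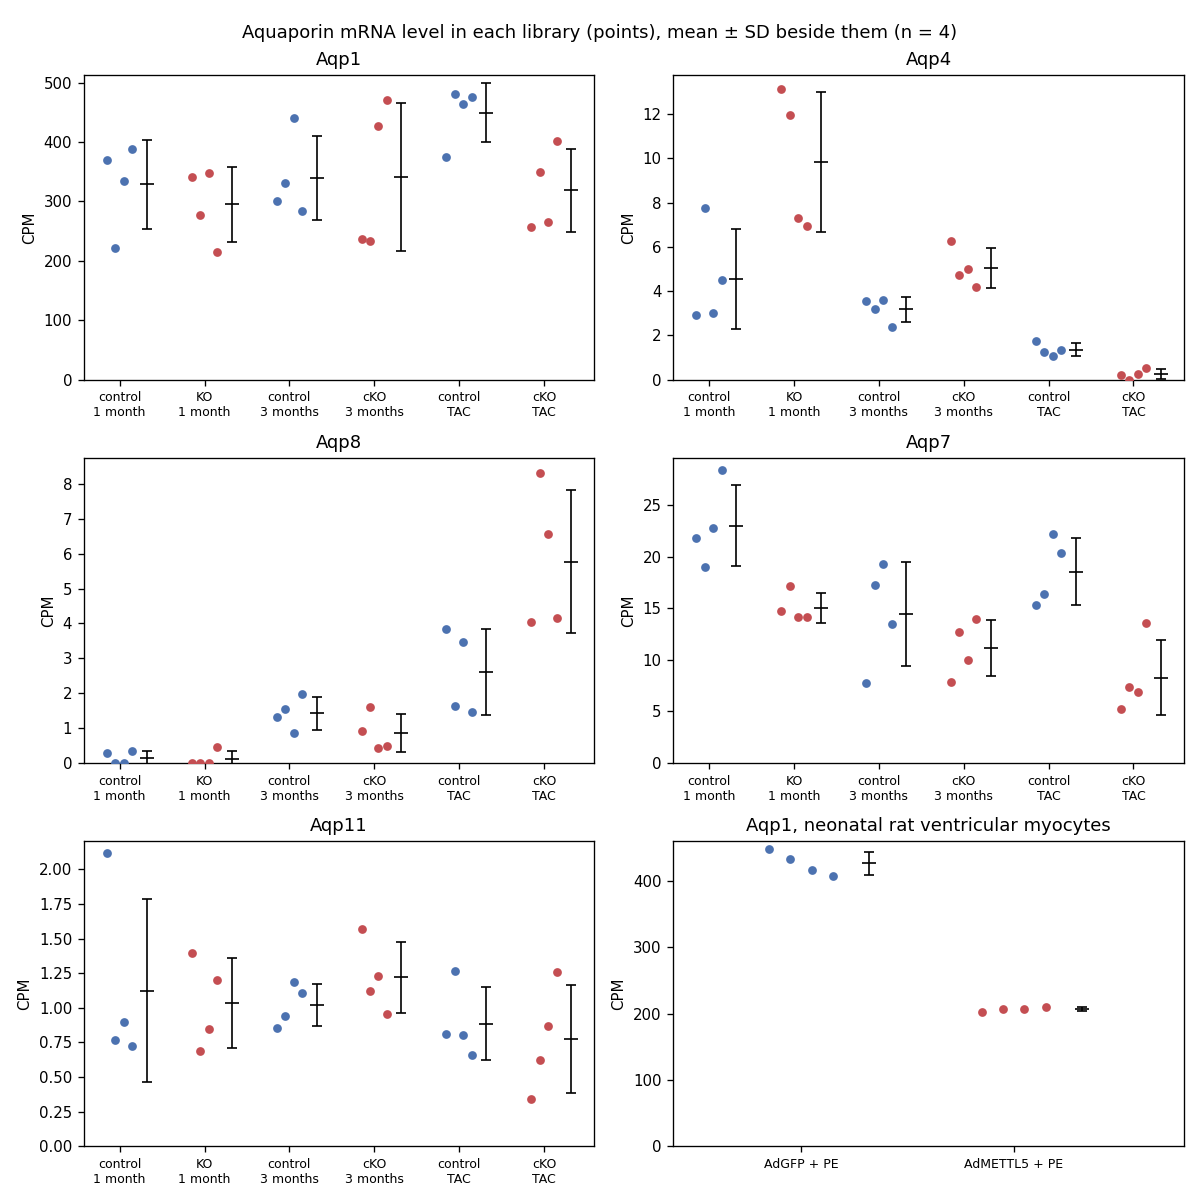
Levels in CPM (vertical axes, from 0) of the 5 aquaporins in the 6 mouse groups and of Aqp1 in the 2 rat groups, with 1 point per library (control or AdGFP in blue, METTL5-deficient or AdMETTL5 in red) and the mean ± SD beside the points (n = 4). Aqp4 is lowest and Aqp8 highest in METTL5-cKO hearts after TAC, and in the rat cells AdMETTL5 lies at 202 to 210 CPM, below AdGFP at 408 to 448 CPM.

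Some genes had levels that correlated with those of Aqp4. Over the 24 mouse libraries, and among 14492 genes with a mean of at least 1 CPM, the highest Pearson correlations with the log2 CPM of Aqp4 were those of Mpped2 (r = 0.926), Plekha5 (r = 0.920), Tmem94 (r = 0.917), Cep128 (r = 0.916) and Sbk2 (r = 0.912). The libraries share groups, tables and depth, so these values only describe the pattern. Unlike Aqp4, all of them but Mpped2 had a lower mean in METTL5-cKO than in control at 3 months. Sbk2 had 4.92 ± 0.748 CPM in control and 5.05 ± 1.26 in METTL5-KO at 1 month, 4.19 ± 0.539 in control and 3.80 ± 0.860 in METTL5-cKO at 3 months, 2.58 ± 0.323 in control after TAC and 0.583 ± 0.437 in METTL5-cKO after TAC (SD, n = 4). Mpped2 went from 12 ± 1.22 CPM in METTL5-KO at 1 month to 4.73 ± 0.738 in METTL5-cKO after TAC. Each of the 5 genes overlaps another annotated gene.

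When the group means were subtracted, the genes that varied with Aqp4 from library to library were others. They were Pfkfb1 (r = 0.776), Phactr1 (r = 0.740), Mlf1 (r = 0.713), Klhdc10 (r = 0.711) and Gpt (r = 0.706). None of them was among the 5 that led before. The log2 CPM of Aqp4 varied most within METTL5-cKO after TAC (SD 1.187), where its counts ran from 0 to 11. In the other mouse groups the SD was 0.24 to 0.641, so counts near the floor weigh heavily in these correlations. By Spearman rho after the same subtraction the leading genes were Mlf1 (0.780), Gpt (0.767), Wdr24 (0.760), Pstk (0.737) and Cdc14b (0.719).

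Aqp8, which passes water and hydrogen peroxide and is best known from pancreas, liver and gut, was the member with a tested difference in the mouse hearts. It was nearly undetected at 1 month, with 7, 0, 0 and 6 counts in control and 0, 0, 0 and 9 in METTL5-KO, and it did not pass the filter there. At 3 months it had 29, 33, 19 and 45 counts in control and 21, 36, 10 and 11 in METTL5-cKO. After TAC the counts were 80, 35, 69 and 31 in control and 94, 187, 166 and 86 in METTL5-cKO. Every METTL5-cKO library after TAC was thus above every other mouse library, and the groups at 3 months overlapped. The mean level was 5.77 ± 2.05 CPM in METTL5-cKO after TAC, 2.60 ± 1.23 in control after TAC, 1.43 ± 0.470 in control at 3 months and 0.868 ± 0.542 in METTL5-cKO at 3 months, and it was 0.156 ± 0.181 in control and 0.118 ± 0.235 in METTL5-KO at 1 month (SD, n = 4). Of the neighbours in this order, the METTL5-cKO and control groups after TAC did not overlap, and neither did METTL5-cKO at 3 months and control at 1 month.

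Within METTL5-cKO hearts Aqp8 was 6.57-fold higher after TAC than at 3 months. The log2 fold change was 2.72 with an SE of 0.405 and a 95% interval of 1.73 to 3.71, and it passed over all 16481 genes tested (edgeR quasi-likelihood test, adjusted p = 0.00614). The groups did not overlap, as for 10.4% of all genes tested in this direction, and the two-sided exact permutation test gave p = 0.0286, its smallest possible value. Aqp8 was 1 of the 4 members tested in this comparison that passed, while 14.6% of all genes tested passed (7.82% higher). These are 2406 genes, and their number fell to 777 without METTL5-cKO library 2 after TAC and rose to 3220 without library 4. The log2 fold change stayed between 2.49 and 3.21, with adjusted p from 0.00318 to 0.0217 (edgeR), with any 1 of the 8 libraries left out. Surgery and table cannot be told apart here either.

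Within the controls the corresponding log2 fold change of Aqp8 was 0.86 (SE 0.360), with adjusted p = 0.24 (edgeR) and a 95% interval of -0.02 to 1.74, and the groups overlapped. Here 1.44% of the 16269 genes tested passed, 18.8% had an unadjusted p below 0.05, DESeq2 called 774 genes, and none of the 4 members tested passed. The edgeR count was 234 genes, with 40 without control library 3 after TAC and 284 without control library 1 at 3 months. The unadjusted p was below 0.05 for 2 of them, Aqp1 and Aqp8. The difference between the changes in control and METTL5-cKO was not tested. As a description, the genotype comparison gave Aqp8 a log2 fold change of -0.71 (SE 0.411) at 3 months and of 1.14 (SE 0.351) after TAC, where control and METTL5-cKO libraries did not overlap.

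Markers of pancreas and liver were close to 0 in every mouse heart. The 10 markers summed to at most 1.08 CPM in any library, and 8 of them were at 0 in every METTL5-cKO library after TAC. Fibroblast markers were higher too. They summed to 542 to 778 CPM in METTL5-cKO at 3 months and to 871 to 2230 CPM after TAC, with 5 of 9 higher (Col1a1, Col1a2, Col3a1, Lum and Dcn) and none lower. In METTL5-cKO libraries 1 to 4 after TAC they summed to 2234, 1560, 1483 and 871 CPM, while Aqp8 had 4.04, 8.32, 6.55 and 4.16 CPM. Libraries 1 and 4, with the highest and the lowest sum, both had less Aqp8 than libraries 2 and 3. Macrophage markers summed to 171 to 252 and 278 to 371 CPM, with 3 of 8 higher (C1qa, C1qb and Adgre1) and none lower. Leaving out single libraries gave 2 fibroblast markers (without METTL5-cKO library 1 after TAC) to 6 (without library 4) and 2 macrophage markers (without library 2) to 5 (without library 4) passing. Other lists changed as well. Of 12 cardiomyocyte markers 2 were higher and 4 lower, and of 5 glial markers 1 was higher and 2 lower. Fast skeletal muscle markers had 2 of 6 higher and 1 lower. Smooth muscle markers had 2 of 6 higher, atrial 2 of 3 higher and endothelial 1 of 12 lower. With single libraries left out 2 to 7 cardiomyocyte, 1 to 4 glial, 2 to 4 fast skeletal and 0 to 1 endothelial markers passed. The smooth muscle and atrial lists kept 2. The part of any of these cells in the level of Aqp8 was not tested.

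Aqp7, the glycerol channel, was lower in METTL5-deficient than in control hearts after TAC and, without passing the test, at 1 month. Its counts at 1 month were 526, 372, 356 and 511 in control and 305, 324, 302 and 270 in METTL5-KO. Every METTL5-KO library was below every control library. After TAC the counts were 319, 349, 441 and 433 in control and 122, 166, 174 and 281 in METTL5-cKO, again without overlap. At 3 months they were 173, 366, 423 and 305 in control and 181, 283, 228 and 306 in METTL5-cKO, and the groups overlapped. The mean level went from 23.0 ± 3.93 CPM in control at 1 month through 18.5 ± 3.28 in control after TAC, 15.03 ± 1.41 in METTL5-KO at 1 month, 14.5 ± 5.06 in control at 3 months and 11.1 ± 2.72 in METTL5-cKO at 3 months to 8.28 ± 3.67 in METTL5-cKO after TAC (SD, n = 4), with neighbours overlapping at each step.

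The difference at 1 month, which was not used in choosing the members, was 1.53-fold, with a log2 fold change of -0.61, an SE of 0.136 and a 95% interval of -0.95 to -0.28. It ranked 17 among 16329 genes by p and did not pass over all of them (edgeR quasi-likelihood test, unadjusted p = 0.00132, adjusted p = 0.966), and the adjusted p ranged from 0.117 to 1 under the other settings. The two-sided exact permutation test gave p = 0.0286, the smallest it can give. Among all genes tested 3.01% had groups that did not overlap, 1.49% with METTL5-KO lower, and Aqp7 was the only 1 of the 4 members tested. Without control library 1 the log2 fold change was -0.63.

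As a description, Aqp7 had a log2 fold change of -0.37 (SE 0.273) at 3 months and of -1.18 (SE 0.265) after TAC, where it was 2.27-fold lower. After TAC the groups did not overlap for Aqp7 and Aqp8 and overlapped for Aqp1 and Aqp11, beside 18.6% of all genes tested without overlap. Of the 16340 genes, 12.7% passed an adjusted p of 0.05, a share that moves with single libraries as given above. At 3 months the groups overlapped for each of these members, beside 4.23% of all genes tested without overlap. Of all genes tested there, 0.0732% passed an adjusted p of 0.05. Aqp4 did not overlap in either comparison, but it was chosen on these values and is not set beside the shares. METTL5-cKO library 4 after TAC had 13.6 CPM of Aqp7, near the lowest control at 15.3 CPM, while the other libraries of its group had 5.25 to 7.38 CPM, and without it the log2 fold change was -1.52. Between 3 months and TAC Aqp7 changed by a log2 fold change of 0.36 (SE 0.243) in control (adjusted p = 0.446, edgeR) and of -0.44 (SE 0.288) in METTL5-cKO (adjusted p = 0.338). Without METTL5-cKO library 4 after TAC the latter was -0.78 and passed (adjusted p = 0.0358, edgeR).

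Most markers of fat cells, which carry much Aqp7, were at or near 0. Of 8 adipocyte markers, 5 (Plin1, Cidec, Retn, Lep and Ucp1) were at 0 in every library of both groups after TAC. Adipoq and Cfd had at most 2 and 4 counts. The sum was 18.1 to 20.2 CPM in control and 19.4 to 23.7 CPM in METTL5-cKO, and the remaining marker, Cidea, thus made up nearly all of it. Endothelial markers moved in the same direction as Aqp7. Their sum was 1450 to 1710 CPM in control and 1260 to 1430 CPM in METTL5-KO at 1 month, where none of 12 passed, and 1030 to 1240 CPM in control and 732 to 975 CPM in METTL5-cKO after TAC. After TAC 6 of the 12 were lower and none was higher, with Tek, Kdr, Flt1, Cdh5, Tie1 and Pecam1 passing. The number lower was 2 without control library 2 or 4 or METTL5-cKO library 1, 2 or 3, 3 without control library 3 and 9 without METTL5-cKO library 4. Cardiomyocyte markers summed lower after TAC as well, to 42100 to 46900 CPM in control and 37000 to 41100 CPM in METTL5-cKO, with 1 of 12 higher and 3 lower. At 1 month their sums overlapped, with 27300 to 37900 CPM in control and 33600 to 37300 CPM in METTL5-KO. The part of the fat, endothelial or muscle cells in the level of Aqp7 was not tested.

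**Figure D3:**
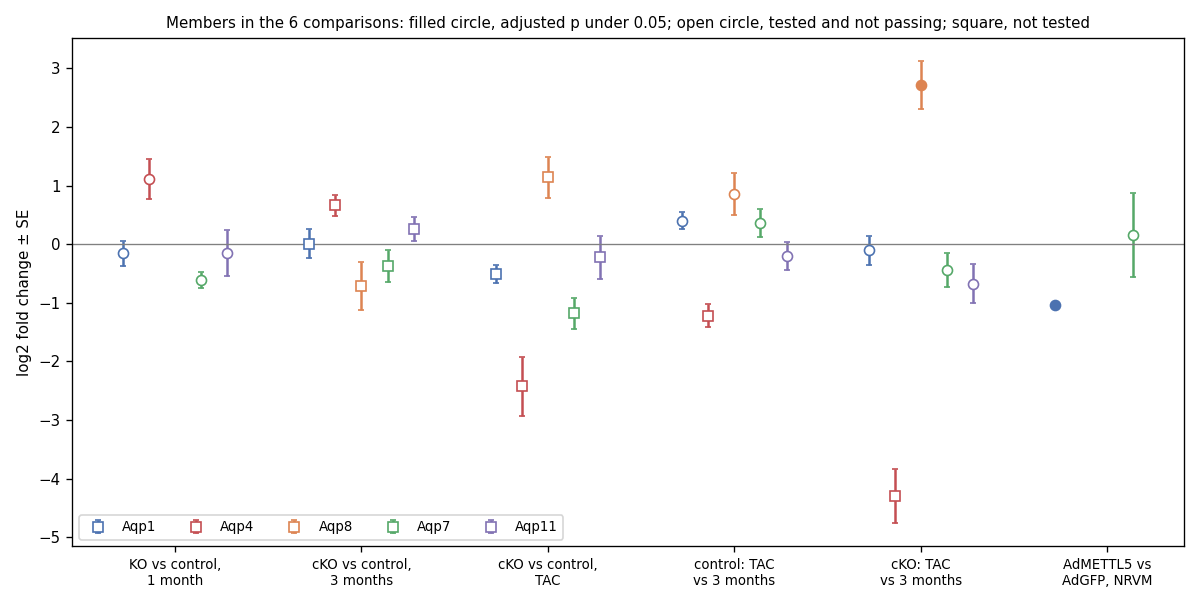
Log2 fold change ± SE (vertical axis) of each aquaporin in the 6 comparisons (horizontal axis), with filled circles for an adjusted p under 0.05, open circles for tested values that did not pass and squares for values given without a test. Aqp8 in METTL5-cKO hearts after TAC against 3 months and Aqp1 in NRVMs are the filled points, at 2.72 and -1.05.

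Aqp1 had a high level in all mouse groups. It was 328.7 ± 75.0 CPM in control and 295.2 ± 62.8 in METTL5-KO at 1 month, 339.4 ± 69.9 in control and 341.7 ± 124 in METTL5-cKO at 3 months, and 449.2 ± 49.6 in control and 318.6 ± 69.8 in METTL5-cKO after TAC (SD, n = 4). Neighbours in the order of these means overlapped throughout. At 1 month the log2 fold change was -0.16 (SE 0.215, adjusted p = 0.975 by edgeR), with a 95% interval of -0.68 to 0.37, and it was -0.09 without control library 1. Within the controls Aqp1 was 1.32-fold higher after TAC than at 3 months, a log2 fold change of 0.40 (SE 0.141) that did not pass over all genes (adjusted p = 0.176, edgeR). Within METTL5-cKO the log2 fold change was -0.11 (SE 0.253, adjusted p = 0.815).

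After TAC, as a description, Aqp1 was 1.42-fold lower in METTL5-cKO, with a log2 fold change of -0.51 (SE 0.156). With each library left out in turn this value ran from -0.638 to -0.415. The control libraries had 376, 480, 465 and 476 CPM and the METTL5-cKO libraries 256, 350, 266 and 402 CPM, so that only METTL5-cKO library 4 and control library 1 overlapped. At 3 months the log2 fold change was 0.01 (SE 0.247), and METTL5-cKO split into a pair of libraries at 237 and 233 CPM and a pair at 426 and 470 CPM. The endothelial markers of the same 4 libraries summed to 693, 788, 937 and 1080 CPM, in the order of the library numbers, so the pair with less Aqp1 also had lower sums. The library with the most Aqp1 also had the highest sum in both control groups without surgery and in METTL5-cKO after TAC. It did not in METTL5-KO at 1 month or in control after TAC. Between genotypes at 3 months the median sum was 862 CPM in METTL5-cKO and 1160 CPM in control, although mean Aqp1 was alike. After TAC the medians were 798 and 1130 CPM. Erythroid markers, whose cells also carry Aqp1, summed to 1120 to 1500 CPM in control and to 947 to 1260 CPM in METTL5-cKO after TAC, with none of 6 passing. The part of either cell type in the level of Aqp1 was not tested.

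**Figure D4:**
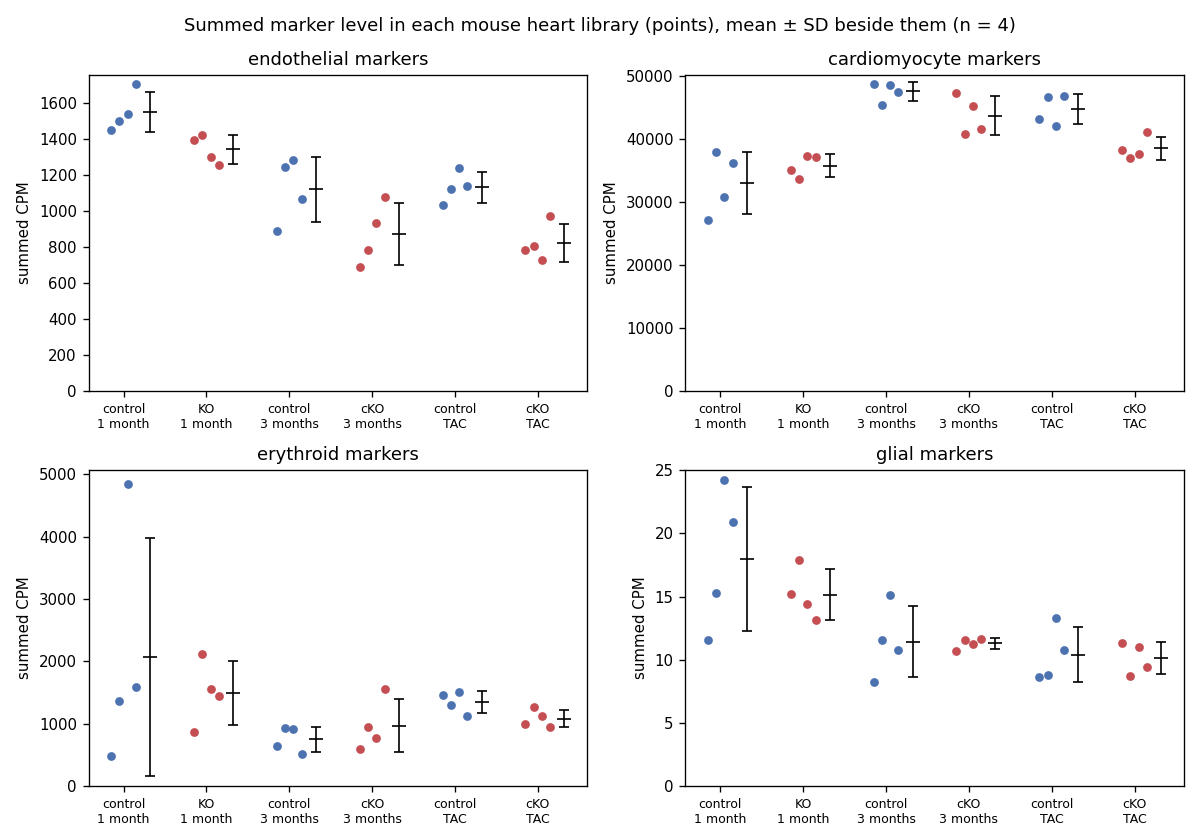
Summed CPM (vertical axes, from 0) of the endothelial, cardiomyocyte, erythroid and glial marker lists in the 6 mouse groups, with 1 point per library and the mean ± SD beside the points (n = 4). After TAC the endothelial sums of METTL5-cKO (732 to 975 CPM) lie below those of control (1030 to 1240 CPM), and the glial sums overlap.

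Aqp11, an unusual aquaporin of the endoplasmic reticulum, had a low level in all groups. Its counts lay between 8 and 51 in the mouse libraries, and the means of the groups lay between 0.774 ± 0.388 CPM in METTL5-cKO after TAC and 1.22 ± 0.259 CPM in METTL5-cKO at 3 months (SD, n = 4). All neighbours in the order of the means overlapped. At 1 month the log2 fold change was -0.15 (SE 0.399, adjusted p = 0.98 by edgeR), but control library 1 held 51 counts against 13 to 15 in the other controls, and without it the sign turned, to 0.39. The 95% interval of -1.13 to 0.83 leaves room for changes in either direction. Aqp11 did not pass within control (log2 fold change -0.21, SE 0.236, adjusted p = 0.656 by edgeR) or METTL5-cKO hearts (log2 fold change -0.67, SE 0.340, adjusted p = 0.215) between 3 months and TAC. As a description, its log2 fold change between genotypes was 0.26 (SE 0.207) at 3 months and -0.22 (SE 0.366) after TAC.

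In NRVMs treated with PE, Aqp1 fell with METTL5 overexpression. It had 448, 433, 417 and 408 CPM with AdGFP and 202, 208, 206 and 210 CPM with AdMETTL5. All AdMETTL5 libraries were below all AdGFP libraries, by more than the spread within either group. Aqp1 was 2.06-fold lower, with a log2 fold change of -1.05, an SE of 0.044 and a 95% interval of -1.15 to -0.94 (edgeR quasi-likelihood test, adjusted p = 1.23e-08). The two-sided exact permutation test gave p = 0.0286, its smallest possible value. Here 52.8% of the 15041 genes tested passed, 25.7% of those tested with AdMETTL5 lower, and Aqp1 was 1 of the 2 members tested that did. A smaller share, 5.85%, passed with an absolute log2 fold change over 1 as well, and 23.1% had groups that did not overlap with AdMETTL5 lower.

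The cell markers of the rat cultures moved too. Cardiomyocyte markers summed to 30100 to 37800 CPM with AdGFP and to 12200 to 14000 CPM with AdMETTL5, and all 11 tested were lower, with a median log2 fold change of -1.14. Endothelial markers summed to 568 to 627 and 472 to 576 CPM, with Kdr and Flt1 of 9 tested higher and Eng lower. Fibroblast markers summed to 10800 to 11400 and 8610 to 9510 CPM, with 7 of 8 tested lower, and macrophage markers to 92.3 to 109 and 64.7 to 78.2 CPM, with 3 of 5 lower and none higher in either list, while erythroid markers summed to at most 1.51 CPM in either group. The part of these cells in the level of Aqp1 was not tested.

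The other members were near the limit of detection in the rat cells. Aqp7 had 13, 0, 10 and 10 counts with AdGFP and 13, 10, 0 and 10 with AdMETTL5, a log2 fold change of 0.16 with a 95% interval of -1.60 to 1.92 (adjusted p = 0.868, edgeR). Aqp4 had 3, 13, 0 and 6 counts with AdGFP and 0 in all AdMETTL5 libraries, and did not pass the filter. Without the filter it passed (adjusted p = 0.0454, edgeR), as it did with DESeq2 (adjusted p = 0.0333), on a total of few reads. Aqp11 had 5, 5, 0 and 5 counts with AdGFP and 5, 6, 7 and 9 with AdMETTL5, and Aqp8 had counts (4) in a single AdGFP library. Levels of the rat cells were not compared with those of the mouse hearts, which were counted on another genome.

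Aqp4 is held at the membrane by syntrophin and the dystrophin complex, and few genes of that complex passed in the mouse hearts. Of 15 tested, none passed at 1 month, at 3 months or between 3 months and TAC in control hearts. After TAC 1 was higher and 2 were lower in METTL5-cKO, with a median log2 fold change of 0.13 beside -0.004 for all genes. Sntb1, a syntrophin, was higher (log2 fold change 1.23, adjusted p = 0.0112 by edgeR), Dmd, the gene of dystrophin, was lower (-0.66, adjusted p = 0.0299), and Sgca, a sarcoglycan, was lower (-0.36, adjusted p = 0.0473). Dmd and Sgca overlap other annotated genes. The level of Dmd after TAC was 29.5 to 42.6 CPM in control and 16.2 to 25.7 CPM in METTL5-cKO. At 3 months, where Dmd did not pass, it was 29.1 to 47.3 and 20 to 26.7 CPM, also without overlap. At 1 month the means were 23.7 CPM in control and 24.8 CPM in METTL5-KO. In METTL5-cKO hearts between 3 months and TAC Cav3, the caveolin of muscle, was higher (0.36, adjusted p = 0.0464, edgeR), and none was lower. In NRVMs 1 of 15 was higher and 7 were lower with AdMETTL5, beside 52.8% of all genes tested that passed, among them Dtna, a dystrobrevin (log2 fold change -1.19), Cav3 (-0.98) and Sgcb, a sarcoglycan (-0.44).

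The genes of glycerol and lipid droplet metabolism, to which Aqp7 delivers glycerol, were examined in the same way. Of 19 tested in the mouse hearts, none passed at 1 month, at 3 months or between 3 months and TAC in control hearts. After TAC 1 was higher and 2 were lower in METTL5-cKO, with a median log2 fold change of -0.14. Gpd1, which makes glycerol 3-phosphate, was higher (0.53, adjusted p = 0.031, edgeR), and Fabp4, a fatty acid carrier of fat and endothelial cells (-0.55, adjusted p = 0.0317), and Lipe, the hormone-sensitive lipase (-0.56, adjusted p = 0.0406), were lower. Gpd1 and Lipe overlap other annotated genes. In METTL5-cKO hearts between 3 months and TAC Gpd1l (-0.40, adjusted p = 0.0312, edgeR) and the fatty acid transporter Cd36 (-0.49, adjusted p = 0.0398) were lower. In NRVMs 6 of 16 were higher and 3 were lower, beside 52.8% of all genes tested that passed, led by Dgat2 (log2 fold change 1.13), Gpd1 (1.01), Gpd2 (0.76) and the droplet coat protein Plin4 (1.03), all higher with AdMETTL5.

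Genes that adjust cell volume, such as ion cotransporters and swelling-activated channels, moved in both directions. Of 21 tested in the mouse hearts, none passed at 1 month, at 3 months or between 3 months and TAC in control hearts. After TAC 3 were higher and 1 was lower in METTL5-cKO, with a median log2 fold change of 0.01. The potassium-chloride cotransporters Slc12a7 (0.28, adjusted p = 0.0264, edgeR) and Slc12a4 (0.32, adjusted p = 0.04) and the sodium pump subunit Atp1b1 (0.52, adjusted p = 0.0359) were higher, and Nfat5, the transcription factor of the osmotic response, was lower (-0.26, adjusted p = 0.0485). Slc12a4 and Atp1b1 overlap other annotated genes. Between 3 months and TAC in METTL5-cKO hearts Nfat5 (-0.41, adjusted p = 0.0167, edgeR) and the chloride transporter Clcn3 (-0.49, adjusted p = 0.0199) were lower and Slc12a4 was higher (0.33, adjusted p = 0.0419). In NRVMs 8 of 21 were higher and 3 were lower, beside 52.8% of all genes tested that passed. The sodium-potassium-chloride cotransporter Slc12a2 (log2 fold change 0.82) and the kinase Oxsr1 (0.40) were among those higher. In each of these lists the share of genes that passed after TAC, 3 of 15, 3 of 19 and 4 of 21, stood beside 12.7% of all genes. With single libraries left out the dystrophin list had 1 to 3 genes passing after TAC. The glycerol list had 0 without control library 2, 3 or 4 or METTL5-cKO library 2 or 3, and the cell volume list had 0 without control library 4 or METTL5-cKO library 1 or 2. Without METTL5-cKO library 4 they had 9 and 7. Between 3 months and TAC in METTL5-cKO hearts the ranges were 0 to 2, 0 to 5 and 0 to 6 for these 3 lists.

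**Figure D5:**
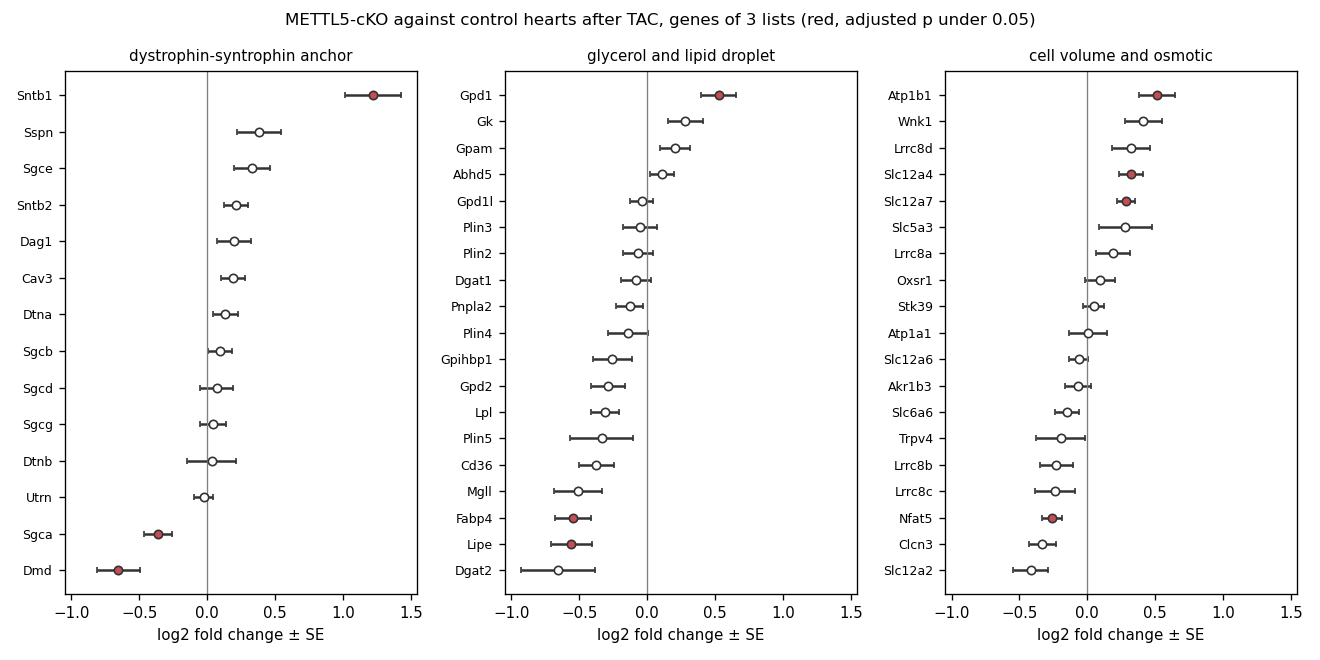
Log2 fold change ± SE (horizontal axis) of METTL5-cKO against control hearts after TAC for tested genes of the dystrophin-syntrophin, glycerol and lipid droplet, and cell volume lists (vertical axis), with red points for an adjusted p under 0.05. Most points are open, and Sntb1 at 1.23 is the value farthest from 0.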

How the data were processed

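Heart and NRVM RNA was sequenced on a BGI platform. The authors aligned reads to GRCm38 or Rnor_6.0 with HISAT2 (2.0.4) and deposited estimated counts per gene from StringTie (2.1.4), and their processing notes also name DESeq2 (1.4.5). The deposited counts were whole numbers, so rounding changed nothing. StringTie derives them from coverage, so intervals of single counts are approximate. The 1-month columns name single samples. The columns of the other tables name the group and a number that matches no replicate, and their libraries were numbered by ascending column number.

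Comparisons were fitted separately, on their own 8 libraries, with edgeR 4.0.16 (R 4.3.3, limma 3.58.1), using filterByExpr with a minimum count of 10, TMM scaling, glmQLFit and glmQLFTest, Benjamini-Hochberg over all genes tested, with adjusted p under 0.05 as passing. Intervals are 95% intervals with 6 residual degrees of freedom. The quasi-likelihood test borrows information across genes and has more degrees of freedom. The intervals are therefore wider than those of the test, and 1 can include no change where the unadjusted p is below 0.05. Levels in CPM used 1 TMM scaling over the 24 mouse libraries (the rat libraries by themselves), with a prior count of 2 for log2 CPM. RPKM used the union of exons of protein-coding transcripts in GENCODE M21. DESeq2 1.42.0, other scalings and filters and leaving out each library were alternatives. The fit, tested on simulated data with 200 genes changed 4-fold, recovered 200 of them in the METTL5-cKO against control comparison after TAC (16340 genes). The changed genes were not drawn from the lowest levels, all genes had the same dispersion, and no library stood apart. The simulation therefore does not cover genes of few counts or outlying libraries.

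The members and gene lists were chosen with earlier results of these data known. Named list genes are the up to 4 per list and comparison with the smallest adjusted p among those passing (some are not reported here), and genes most like Aqp4 are the 5 with the highest correlation. No library was counted as a duplicate, since the most similar pair still differed beyond sampling noise (chi-square over its degrees of freedom, 2.16).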

Additional observations from a re-analysis of the deposited data

Results flagged for a closer look

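The log2 fold change of Aqp4 between METTL5-cKO and control hearts was -2.43 after TAC and 0.66 at 3 months, with every METTL5-cKO library on the opposite side of its controls. The difference between the comparisons was not tested, because Aqp4 was chosen for it. The other 2 results are single libraries far from the rest of their group, among 33 groups of 4 libraries examined, of which about 1 in 20 would be picked out by chance. Aqp1 stood at 376 CPM in control library 1 after TAC and at 465 to 480 CPM in the other controls. Aqp11 stood at 2.11 CPM in control library 1 at 1 month and at 0.722 to 0.896 CPM in the other controls, in the library that also had the highest Nppa level of its group.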

How the results depend on the processing

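Of 417 values and counts recomputed with another setting or with a library left out, 396 kept their direction and side of the threshold (counts, within 1.5 times), 12 turned sign, 8 moved, of which 5 are the correlations with Aqp4, and 1 came to pass. Leaving out each library for the lists, and counting all genes that way, was chosen after seeing the data, and 103 of 632 list counts moved by over 1.5 times. The number of genes passing ranged from 479 to 3899 after TAC (2071 with all libraries), from 40 to 284 in control (234) and from 777 to 3220 in METTL5-cKO (2406) hearts between 3 months and TAC, from 2 to 9 at 3 months (12), from 0 to 2 at 1 month (1) and from 7089 to 7725 in NRVMs (7949). The number of members passing in METTL5-cKO hearts after TAC against 3 months was 1 and became 2 without METTL5-cKO library 4 after TAC, through Aqp7 (range 1 to 2). In NRVMs it rose from 1 to 2 with DESeq2 and with no filter, through Aqp4, which had 0 counts in all AdMETTL5 libraries. Leaving out single libraries turned the sign of some values near 0. The log2 fold change of Aqp1 ranged from -0.19 to 0.16 at 3 months (main value 0.01) and from -0.25 to 0.09 in METTL5-cKO hearts after TAC against 3 months, that of Aqp11 from -0.335 to 0.389 at 1 month and from -0.53 to 0.028 after TAC, and that of Aqp7 from -0.24 to 0.57 in NRVMs. Scaling by library size alone moved the median of all genes by 0.14 after TAC and by 0.13 in NRVMs, and gave Aqp1 -0.91 in NRVMs and Aqp4 -2.29 after TAC. With at least 10 counts in every library Aqp4 had no value after TAC. The replicate numbers of the 1-month labels did not pair the libraries (same-number correlations 0.239, 0.12, -0.107 and 0.078), and a fit with them as a block called 1 gene, as without it, and 0 members. By Spearman rho, without subtracting group means, the genes most like Aqp4 were others (Rbmx 0.922, Epb41l3 0.916, Sorcs2 0.910, Lgr6 0.900, Smarcd1 0.897). Depth limited Aqp4 in METTL5-cKO hearts after TAC, Aqp8 at 1 month, and all members but Aqp1 in NRVMs.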
